A study of Mus musculus with 6 samples.

Results

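Dual-specificity MAP kinase phosphatases are a class of enzymes that switch off the MAP kinases ERK, JNK and p38. All 9 genes of the set, Dusp1, Dusp2, Dusp4, Dusp5, Dusp6, Dusp7, Dusp8, Dusp10 and Dusp16, were chosen by gene symbol and were found among the 18019 genes of the deposited table. The libraries came from RAW264.7, a mouse macrophage cell line that was induced with lipopolysaccharide (LPS), the bacterial product that signals through Toll-like receptor 4. One group of 3 libraries was also given TPPU, an inhibitor of soluble epoxide hydrolase, and the other group of 3 had LPS without TPPU and is called control. The labels name no batch that differs among the 6 libraries. The sources used here give no dose or time, and do not say whether replicates were separate cultures. The p-values therefore measure the spread between these 6 libraries, which may be technical.

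MAP kinases are activated when an upstream kinase phosphorylates a threonine and a tyrosine in their activation loop, and a dual-specificity phosphatase removes both phosphates. Transcription of several of these phosphatases is itself induced by MAP kinase signalling, which closes a negative feedback loop. In macrophages exposed to LPS, Dusp1 is best known as a brake on p38 and JNK and so on cytokine production. The family is usually divided into inducible nuclear enzymes (Dusp1, Dusp2, Dusp4 and Dusp5), cytoplasmic enzymes that prefer ERK (Dusp6 and Dusp7), and enzymes that prefer JNK and p38 (Dusp8, Dusp10 and Dusp16). The remaining catalytic member of the family, Dusp9, was not analysed here.

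The members share the catalytic signature of cysteine-based protein tyrosine phosphatases, a histidine and the catalytic cysteine followed, after 5 other residues, by an arginine. Translation of the annotated coding sequence of 1 principal GENCODE transcript per gene found it once in each of the 9 genes. The coding bases of that stretch are shown with the histidine, cysteine and arginine codons in capitals, because they are the catalytic residues common to all members. The signature is named for the wider class and is not particular to these members. Genes outside the 9 were not searched for it.
Dusp1: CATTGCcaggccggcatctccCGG
Dusp2: CACTGCcaagctggcatctctCGC
Dusp4: CACTGCcaggccggcatctccCGA
Dusp5: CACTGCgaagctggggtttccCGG
Dusp6: CATTGCttggcaggtatcagcCGC
Dusp7: CACTGCctagcaggcatcagcCGT
Dusp8: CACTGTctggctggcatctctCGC
Dusp10: CACTGCcaggccggcgtgtccCGA
Dusp16: CACTGCttagctgggatctctCGC
Of the 24 bases, 11 were identical in all 9 genes. Dusp1 and Dusp4 shared 22 of 24 bases, as did Dusp4 and Dusp10, while Dusp5 and Dusp6 shared 13. In the Dusp1 protein the stretch covers residues 257 to 264, and in Dusp4 residues 283 to 290.

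Dusp1 was the member whose levels stood furthest from control, so its upstream sequence is shown too. RefSeq places Dusp1 on chromosome 17 (26505591 to 26508472, GRCm38.p6, the assembly also called mm10), on the minus strand. The 250 bases before its start site, chr17:26508473-26508722, are printed in the sense of the gene, with matches to the core of the cAMP response element, TGACG on either strand, in capitals.
Dusp1 upstream: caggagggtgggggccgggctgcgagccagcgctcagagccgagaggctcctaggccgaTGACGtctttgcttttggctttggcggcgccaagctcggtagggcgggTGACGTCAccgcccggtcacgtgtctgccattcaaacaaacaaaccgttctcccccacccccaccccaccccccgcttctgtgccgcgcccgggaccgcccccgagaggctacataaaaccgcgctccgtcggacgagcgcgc
The window held 1 full element, TGACGTCA, at position -143 from the start site, and a separate core match at position -191. The full element contains the core on both strands. Upstream windows were present for 8 of the 9 members, Dusp4 being the exception. The Dusp8 and Dusp16 windows lie inside the RefSeq spans of their genes, before a start site within the span. The Dusp7 window lies partly inside its span. Full elements were found in 2 of the 8, Dusp1 and Dusp8, against 1.62% of 27025 RefSeq promoter windows of the same length. Core matches were found in 4 of the 8, in Dusp1, Dusp5, Dusp8 and Dusp16, against 17.9% of all windows. The 40 bases around the sites of the other members are given for comparison, again in the sense of each gene.
Dusp8, chr7:142095368-142095407, minus strand: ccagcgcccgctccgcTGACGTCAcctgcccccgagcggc
Dusp8, chr7:142095324-142095363, minus strand: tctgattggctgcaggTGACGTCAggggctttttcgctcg
Dusp16, chr6:134792676-134792715, minus strand: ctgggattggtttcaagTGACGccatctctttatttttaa
Dusp5, chr19:53529073-53529112, plus strand: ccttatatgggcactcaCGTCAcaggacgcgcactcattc
Dusp5 was also the member with CArG boxes, the element bound by serum response factor, at positions -82 and -72. CArG boxes occurred in 1.4% of all windows. GC boxes, GGGCGG on either strand, occurred in 6 of the 8 member windows and in 32.9% of all windows. The AP-1 motif TGANTCA, the ETS motif CCGGAAG and the NF-κB motif had no match in the 8 windows and occurred in 6.87%, 7.05% and 3.75% of all windows. These matches describe letters in the windows and say nothing about binding.

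Expression is given as the deposited FPKM, which scales fragments to gene length and to the library's total. Estimated depth was between 18.3 and 23 M (mega) fragments in the TPPU libraries and between 17.8 and 22.3 M in the control libraries. Control replicate 3 was unlike the rest. Its mean correlation with them over the tested genes was 0.966, against 0.981 to 0.983 for the others, and mitochondrially encoded transcripts took 0.371% of its FPKM, against 0.914% in TPPU replicate 1 and 1.46% to 1.85% in the other 4. Across 9522 genes, which are not independent, its log2 deviation from each gene's mean had a rank correlation (Spearman's rho) of 0.61 with GC content. This rho was 0.25, -0.28 and -0.42 in TPPU replicates 1, 2 and 3. In control replicates 1 and 2 it was -0.19 and -0.46. Deviations from a mean over the 6 libraries offset each other, so these values are not independent. The principal transcripts of the members had a median GC content of 56%, with 6 of 9 above the median of 50.2% for tested genes. Macrophage identity was checked with 9 markers, of which 8 were at 1 FPKM or more in every library and Mertk was under 1 FPKM in every library. Summed, they gave 2017 to 2135 FPKM in TPPU libraries and 1904 to 2288 FPKM in control libraries. The T cell, B cell and epithelial lists, with 2 of 6, 3 of 4 and 4 of 4 markers among the analysed genes, each summed to at most 1.03 FPKM in any library, and the 6 fibroblast markers summed to 3 to 3.79 FPKM in TPPU libraries and 3.54 to 7.96 FPKM in control libraries. Ephx2, which encodes the enzyme that TPPU inhibits, was at 0.42, 2.56 and 1.54 FPKM in TPPU libraries and 0.865, 0.447 and 0.632 FPKM in control libraries. A drug that blocks the enzyme need not change its transcript, so this does not check the labels. The labels of the TPPU samples also cite a column named sh-LIS1 in another table, and Pafah1b1, the LIS1 gene, measured 12.8 ± 1.87 FPKM in TPPU libraries and 10.8 ± 3.92 FPKM in control libraries (SD, n = 3 each).

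All 9 members were expressed, with at least 1 FPKM in each of the 6 libraries, so none was lost to the filter on low values. Dusp4 was by far the most abundant, at a mean of 162.9 FPKM over the 6 libraries, a level above that of 97.8% of the 9728 genes tested. Dusp2 followed at 29.6 FPKM. Dusp1, Dusp5 and Dusp16 came next at 14.2, 13.8 and 13.7 FPKM and could not be ordered, since Dusp1 exceeded Dusp5 in 2 of 6 libraries and Dusp5 exceeded Dusp16 in 1. Dusp8, Dusp7 and Dusp10 were at 7.13, 6.47 and 6.06 FPKM, again with overlapping ranges, and Dusp6 was lowest at 4.39 FPKM. The range of Dusp4 lay wholly above that of Dusp2, and that of Dusp16 wholly above that of Dusp8. With the length of the principal transcript, the values correspond to between about 139 fragments, for Dusp6 in TPPU replicate 1, and about 10704 fragments, for Dusp4 in control replicate 2.

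With TPPU, all 9 members had a negative estimated change, but none passed the test. The median log2 fold change of the 9 was -0.39, against 0.02 over all 9728 genes, of which 45.6% were negative. In limma, with Benjamini-Hochberg adjustment over all tested genes and a threshold of 0.05, 0 of the 9 members were called, and the share of all genes called was 0%. At an unadjusted p under 0.05, 3 members were lower and 0 were higher, where 3.7% of all genes were lower and 4.19% were higher. Every TPPU value lay below every control value in 1 member, Dusp1, and above in 0, while 7.88% of all genes were below and 7.48% above in the same way. The median was -0.25 without control replicate 3, and 1 member, Dusp1, then was lower at an unadjusted p under 0.05, as were 4.15% of all genes in that fit. Control replicate 3 held the highest value of 8 of the 9 members, and TPPU replicate 2 the lowest of 6. In these bulk libraries, fewer cells expressing a gene and less RNA per cell cannot be told apart.

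**Figure D1:**
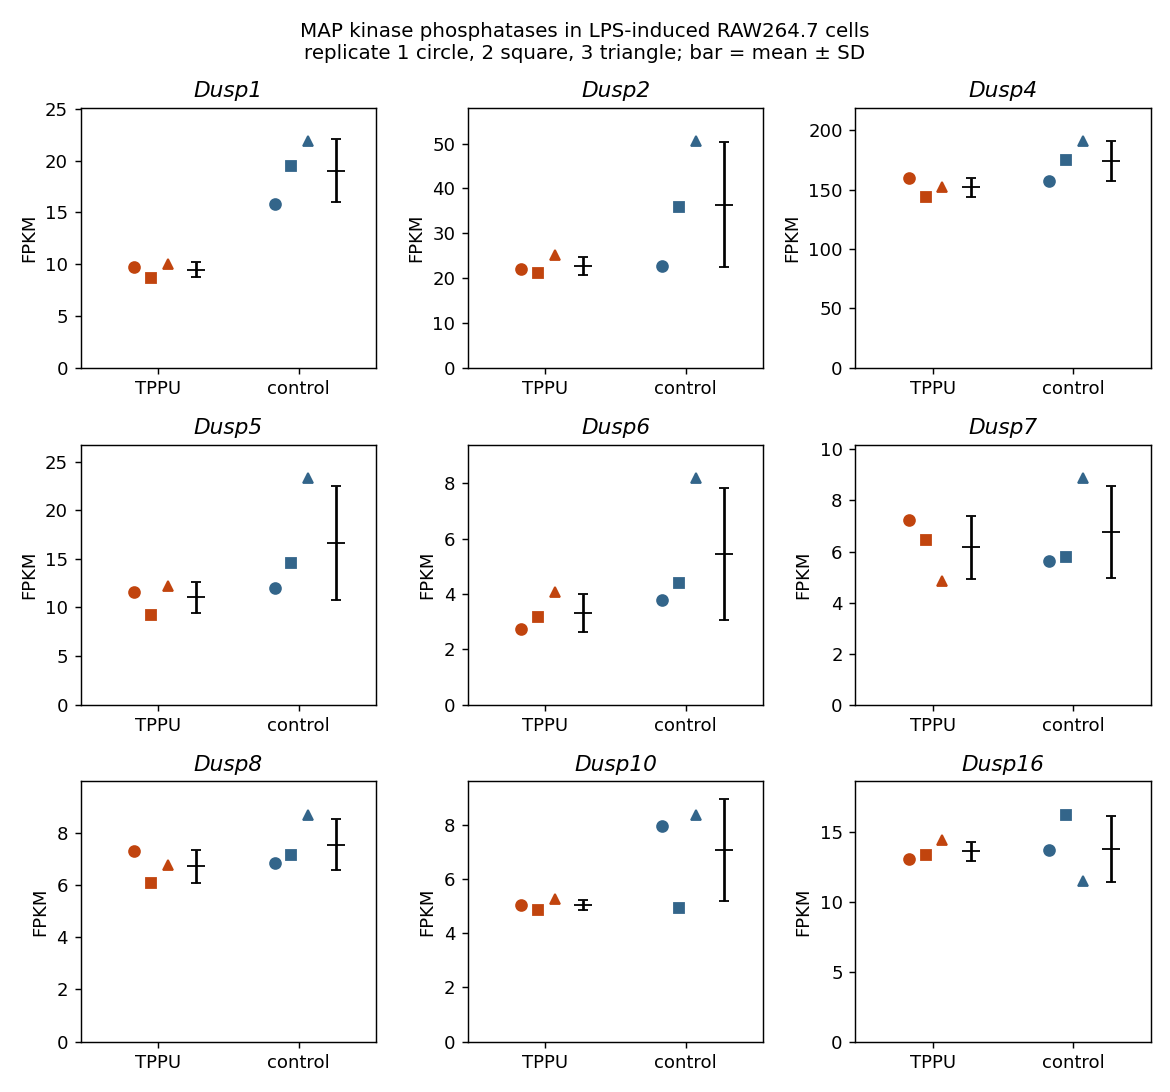
FPKM of the 9 MAP kinase phosphatase genes in each library, TPPU in orange and control in blue, with the mean ± SD of 3 libraries as a black bar; each panel has its own axis from 0. Dusp1 is the gene whose 2 groups do not overlap, and control replicate 3 (blue triangle) is the highest point for every gene except Dusp16.

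Dusp1, the immediate-early phosphatase that acts on p38 and JNK, was at 9.75, 8.62 and 9.99 FPKM in TPPU libraries, against 15.8, 19.4 and 21.8 FPKM in control libraries. All 3 TPPU values were near each other and well under the lowest control value. The means were 9.45 ± 0.73 FPKM with TPPU and 19 ± 3.04 FPKM in control (SD, n = 3 each), a ratio of 0.497. The log2 fold change was -0.93 (SE 0.13, 95% interval -1.23 to -0.63), with a limma adjusted p of 0.128, and it ranked 7th by p among all genes. Leaving out each library in turn gave -1.05 to -0.83. Without control replicate 3 the change was -0.83 (SE 0.12, limma adjusted p = 0.0868).

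Dusp1 passed the threshold under 3 alternatives. With array quality weights its limma adjusted p was 0.0107 and 1.74% of all genes were called. The weights were uneven, at 3.84, 0.826 and 0.191 for control replicates 1, 2 and 3, so control replicate 1 dominated the control estimate. With a trend on GC content removed its limma adjusted p was 0.0455 and 0.103% were called. Without control replicate 3 and TPPU replicate 1 together, the libraries with the lowest mitochondrial share, its limma adjusted p was 0.0487 and 0.401% were called. Over all 20 alternatives the change was between -1.05 and -0.78 and the limma adjusted p between 0.0107 and 0.675. Pseudocounts, filters, limma options, the replicate block and leaving libraries out cannot undo the separation of the Dusp1 values. The alternatives that could were median-of-ratios scaling, quantile normalization and the removal of a GC or length trend. Under each of these every TPPU library kept a lower Dusp1 value than every control library.

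Dusp2 (chromosome 2, 127336159 to 127338377), a nuclear phosphatase found mainly in blood and immune cells, was at 22, 21.2 and 25.1 FPKM in TPPU libraries and at 22.7, 35.9 and 50.5 FPKM in control libraries. The TPPU values were close together, and control replicate 1 fell among them while the other controls were higher. Its log2 fold change was -0.59 (SE 0.24, 95% interval -1.15 to -0.03, limma adjusted p = 0.624). The change was -0.32 without control replicate 3, -0.88 without control replicate 1 and -0.17 with array quality weights.

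Dusp4 (chromosome 8, 34807610 to 34819894), a nuclear phosphatase of ERK and JNK, was at 159.9, 143.8 and 151.8 FPKM in TPPU libraries and at 156.8, 174.9 and 190.4 FPKM in control libraries. The groups overlapped at 1 point, TPPU replicate 1 being above control replicate 1. The log2 fold change was -0.19 (SE 0.1, 95% interval -0.41 to 0.03, limma adjusted p = 0.639). The change was -0.13 without control replicate 3 and -0.11 with array quality weights.

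Dusp5 (chromosome 19, 53529145 to 53541809), a nuclear phosphatase specific for ERK, was at 11.6, 9.24 and 12.2 FPKM in TPPU libraries and at 12, 14.5 and 23.3 FPKM in control libraries. Control replicate 3 was far above the rest, and TPPU replicate 3 lay just above control replicate 1. The log2 fold change was -0.51 (SE 0.22, 95% interval -1.01 to -0.01, limma adjusted p = 0.627). It was -0.25 without control replicate 3 and -0.26 with array quality weights.

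The cytoplasmic ERK phosphatases did not pass the test either. Dusp6 (chromosome 10, 99263231 to 99267489), an ERK-selective enzyme that binds ERK in the cytoplasm, was at 2.72, 3.16 and 4.08 FPKM in TPPU libraries and at 3.77, 4.41 and 8.17 FPKM in control libraries. Control replicate 3 was again the highest by a wide margin, and TPPU replicate 3 exceeded control replicate 1. The log2 fold change of Dusp6 was -0.53 (SE 0.24, 95% interval -1.09 to 0.03, limma adjusted p = 0.627). It was -0.25 without control replicate 3 and -0.21 with array quality weights. Dusp7 (chromosome 9, 106368560 to 106375724), a close relative of Dusp6, was at 7.25, 6.44 and 4.83 FPKM in TPPU libraries and at 5.64, 5.8 and 8.86 FPKM in control libraries. Here TPPU replicates 1 and 2 were higher than control replicates 1 and 2, and the estimate of -0.11 (SE 0.19, 95% interval -0.54 to 0.33, limma adjusted p = 0.891) turned to 0.08 without control replicate 3.

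The phosphatases of JNK and p38 had overlapping groups as well. Dusp10 (chromosome 1, 184034381 to 184075636), which acts on JNK and p38, was at 5.04, 4.87 and 5.25 FPKM in TPPU libraries and at 7.95, 4.92 and 8.35 FPKM in control libraries. Its TPPU values varied least of all members, with a coefficient of variation of 3.73%, and control replicate 2 stood among them. The log2 fold change of Dusp10 was -0.39 (SE 0.18, 95% interval -0.79 to 0.02, limma adjusted p = 0.627). It was -0.6 without control replicate 2 and -0.27 without control replicate 3. With array quality weights it was -0.48 (limma adjusted p = 0.101), further from 0 than in the fit as reported. Dusp8 (chromosome 7, 142079487 to 142095907) was at 7.32, 6.06 and 6.78 FPKM in TPPU libraries and at 6.83, 7.15 and 8.67 FPKM in control libraries, with overlapping groups. Its log2 fold change was -0.14 (SE 0.12, 95% interval -0.43 to 0.14, limma adjusted p = 0.772), or -0.05 without control replicate 3. Dusp16 (chromosome 6, 134715468 to 134807063) was at 13, 13.3 and 14.4 FPKM in TPPU libraries and at 13.7, 16.2 and 11.5 FPKM in control libraries. It was the member for which control replicate 3 was the lowest of all libraries, and its log2 fold change was -0.01 (SE 0.13, 95% interval -0.31 to 0.29, limma adjusted p = 0.989). Genes annotated on the opposite strand, Gm32786 and Gm36328, overlap Dusp8 and Dusp16 and reached at most 0.525 and 0.785 FPKM in any library. Whether the authors' counting used strand is not stated, so reads of such pairs may be mixed. AC137853.2, annotated antisense to Dusp5, was not analysed here, and the same limit holds for Dusp5.

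**Figure D2:**
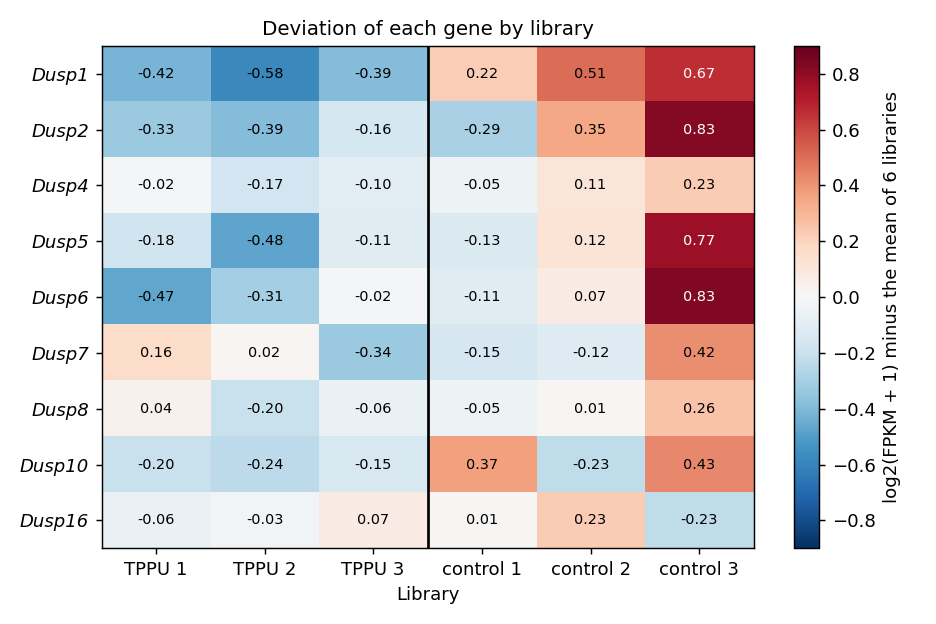
Deviation of each gene from its own mean over the 6 libraries on the log2(FPKM + 1) scale, with TPPU libraries left of the line and control libraries right of it. In control replicate 3 the deviations of Dusp2, Dusp5 and Dusp6 are 0.83, 0.77 and 0.83, and in Dusp1 all TPPU libraries are negative and all controls positive.

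**Figure D3:**
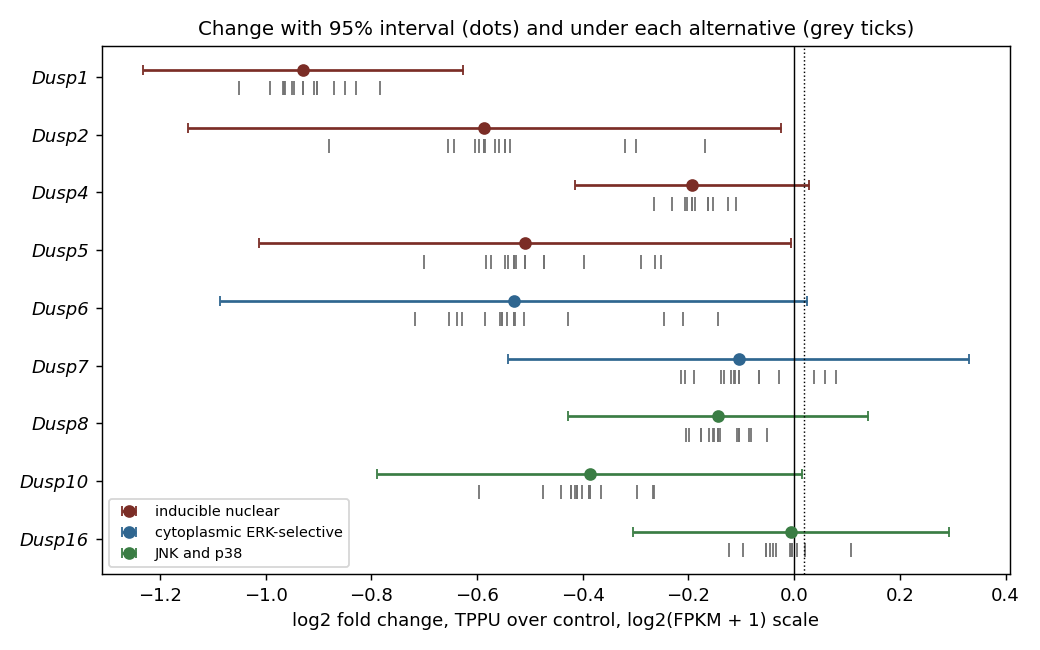
Log2 fold change of TPPU over control for each gene, with its 95% limma interval, coloured by subfamily; grey ticks give the same change under each alternative and the dotted line marks the median of all tested genes, 0.02. Dusp1 stays between -1.05 and -0.78, while Dusp7 and Dusp16 have ticks on both sides of 0.

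Some members had like profiles across the 6 libraries. Likeness was measured as the mean absolute difference between the log2(FPKM + 1) values of a pair of genes, each centred on its own mean. The closest pair of members was Dusp4 and Dusp8, at 0.041, both with small deviations throughout. Next came Dusp5 and Dusp6 at 0.114, Dusp2 and Dusp5 at 0.123, and Dusp2 and Dusp6 at 0.137. Some genes outside the family were closer to these members. Dusp8 ranked 44 among all tested genes in likeness to Dusp4 and Dusp4 ranked 84 for Dusp8, while Dusp6 ranked 12 for Dusp5 and Dusp5 ranked 6 for Dusp6. Dusp2, Dusp5 and Dusp6 share a high value in control replicate 3, the library with the steepest GC trend and the lowest mitochondrial share. Without that library their changes were -0.32, -0.25 and -0.25. With all libraries kept and the GC trend removed, their changes were -0.55, -0.47 and -0.55. The cause of the shared high value was not tested.

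Outside the family, the 5 genes most like Dusp1 were H1f2, Gm16188, Zfp36, Clp1 and Cmpk2. H1f2, a linker histone gene, differed from the Dusp1 profile by a mean of 0.058 and was at 11.4, 11.4 and 12.4 FPKM in TPPU libraries and at 21.2, 26 and 27.6 FPKM in control libraries. Zfp36, which encodes the mRNA decay protein tristetraprolin, differed by 0.111 and was at 74.8, 72.4 and 82.8 FPKM in TPPU libraries and at 94.7, 139 and 168.4 FPKM in control libraries. For Dusp2, the member with the next smallest p, the 5 most like genes were Lat, Tnfrsf9, Sertad1, Tnf and Junb, at 0.076 to 0.106. Tnf, the gene of the cytokine TNF, was at 182.5, 165 and 185.2 FPKM in TPPU libraries and at 176.2, 321.7 and 452.2 FPKM in control libraries. These lists describe 6 libraries in 2 groups and were drawn from all tested genes.

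The summed FPKM of the 9 members was 238.7, 216.6 and 234.4 in TPPU libraries and 245.2, 283.2 and 331.5 in control libraries, with no overlap between groups. Dusp4 alone supplied 67%, 66.4% and 64.8% of the sum in TPPU libraries and 63.9%, 61.7% and 57.4% in control libraries. Dusp1 made up 4.09%, 3.98% and 4.26% of the sum in TPPU libraries and 6.44%, 6.87% and 6.59% in control libraries. Within each group the Dusp1 share varied little, at 4.11% ± 0.14 with TPPU and 6.63% ± 0.22 in control (SD, n = 3 each), and control replicate 3 lay between the other controls. Dusp2 made up 9.23%, 9.76% and 10.7% in TPPU libraries and 9.24%, 12.7% and 15.2% in control libraries, so its share in control replicate 1 was within the TPPU range. The 4 inducible nuclear enzymes summed to 203.3, 182.8 and 199.1 FPKM in TPPU libraries and 207.3, 244.8 and 286 FPKM in control libraries. The 3 enzymes of JNK and p38 summed to 25.4, 24.3 and 26.4 FPKM in TPPU libraries and 28.5, 28.2 and 28.5 FPKM in control libraries. The cytoplasmic ERK enzymes summed to 9.97, 9.61 and 8.9 FPKM in TPPU libraries and 9.42, 10.2 and 17 FPKM in control libraries, with overlapping groups. The shares depend on each other because they sum to the whole, and they are given without a test.

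**Figure D4:**
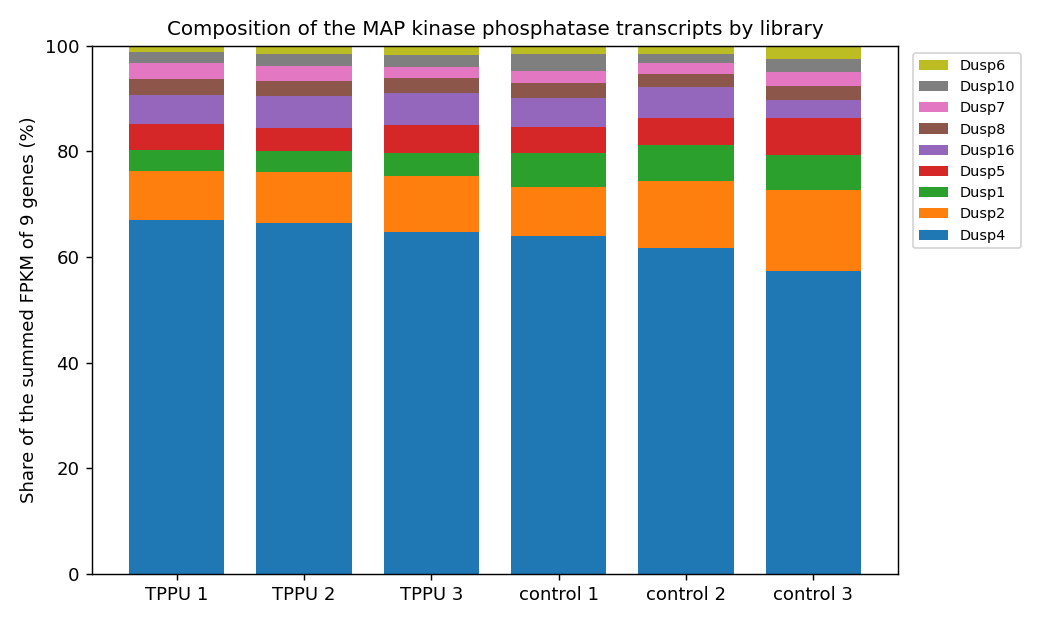
Share of each gene in the summed FPKM of the 9 phosphatase genes, by library, with the TPPU libraries left of the control libraries. Dusp4 is the largest segment in every library, and the Dusp1 segment is between 3.98% and 4.26% in TPPU libraries and between 6.44% and 6.87% in control libraries.

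Some transcripts of the family carry AU-rich elements, the destabilising motifs that proteins such as tristetraprolin bind in the 3' untranslated region. The search was added after the values were seen. The nonamer TTATTTATT occurred in 2 of the 9 members, Dusp1 with 2 copies and Dusp8 with 1, and in 7.38% of 9199 tested genes with an annotated 3' untranslated region. The sites are shown with the nonamer in capitals and 9 bases on each side.
Dusp1, base 103 of the region: agctggtccTTATTTATTtaacacccc
Dusp1, base 392 of the region: tttttacctTTATTTATTtttgtgtag
Dusp8, base 127 of the region: ttcgattttTTATTTATTtaagctagt
At least 3 copies of the shorter ATTTA were present in 5 members, Dusp1, Dusp2, Dusp8, Dusp10 and Dusp16, and in 34.7% of the same genes. Dusp1 and Dusp8 were thus the members with both a nonamer and a full cAMP response element before the start site used. The Dusp8 elements lie inside the RefSeq span of the gene. The log2 fold changes of Dusp1 and Dusp8 were -0.93 and -0.14.

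The lists of other MAP kinase pathway genes had medians nearer to 0, though single genes ranged more widely. They were taken from lists of textbook members, and limma called 0 of them in either direction. At an unadjusted p under 0.05, 3 of them were lower (Mapk6, Map3k8 and Phlda1) and 2 higher (Dusp12 and Dusp19). Over all tested genes, 3.7% were lower and 4.19% higher at that p. Every TPPU value was below every control value in 7.88% of all tested genes, and above in 7.48%. In the same way, 2 of 10 MAP kinases were below and 1 above, and 1 of 14 MAP kinase kinase kinases below and 0 above. Of 8 kinases that MAP kinases activate, 1 was below and 1 above. Of 9 atypical dual-specificity phosphatases, 1 was below and 1 above. Of 5 genes whose transcription follows ERK activity, 1 was below and 0 above. The remaining lists had 0 either way. The number tested in each list is given with its median. Of 14 MAP kinase genes 10 were tested, with a median log2 fold change of -0.01, 5 negative and 5 positive. Mapk6, an atypical MAP kinase, was at 35.6, 34 and 35.7 FPKM in TPPU libraries and at 42.6, 42.3 and 42.6 FPKM in control libraries, and its groups did not overlap. The log2 fold change of Mapk6 was -0.27 (SE 0.08, limma adjusted p = 0.514). The 6 tested MAP kinase kinases had a median of -0.02 and the 14 tested MAP kinase kinase kinases a median of -0.05. Among the second set Map3k8, the kinase TPL2 that carries Toll-like receptor signals to ERK, was at 6.91, 5.69 and 5.58 FPKM in TPPU libraries and at 8.13, 8.84 and 7.56 FPKM in control libraries. Its change was -0.38 (SE 0.12, limma adjusted p = 0.53), again without overlap. The 8 tested kinases that MAP kinases activate had a median of -0.03.

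Among other feedback genes, the 3 tested Spred inhibitors of RAS signalling had a median log2 fold change of -0.1, and 5 tested genes whose transcription follows ERK activity a median of -0.08. Phlda1, one of these ERK output genes, was at 39, 35.9 and 37.5 FPKM in TPPU libraries and at 51.7, 40.8 and 55.5 FPKM in control libraries, with all TPPU values lower. Its log2 fold change was -0.38 (SE 0.12, limma adjusted p = 0.562). The 9 tested atypical dual-specificity phosphatases, which lack the MAP kinase docking domain, had a median of 0.06, with 6 positive and 3 negative changes. Among them Dusp12 had a change of 0.57 (SE 0.22) and Dusp14 one of -0.42 (SE 0.19), with limma adjusted p of 0.566 and 0.627. Dusp19, at 5.01, 5.42 and 3.98 FPKM in TPPU libraries and 3.57, 3.06 and 3.88 FPKM in control libraries, had every TPPU value above every control value. Its log2 fold change was 0.36 (SE 0.14), with a limma adjusted p of 0.578. The 6 other tested phosphatases known to act on MAP kinases had a median of -0.00088. Without single libraries the medians of the 8 lists were between -0.17 and 0.14, and 6 of them took both signs. The median of the 5 ERK output genes moved to 0.02 when control replicate 3 was left out and to -0.16 when TPPU replicate 1 was, and that of the atypical phosphatases -0.06 without control replicate 1. The difference between the 9 MAP kinase phosphatases and these lists was not tested.

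**Figure D5:**
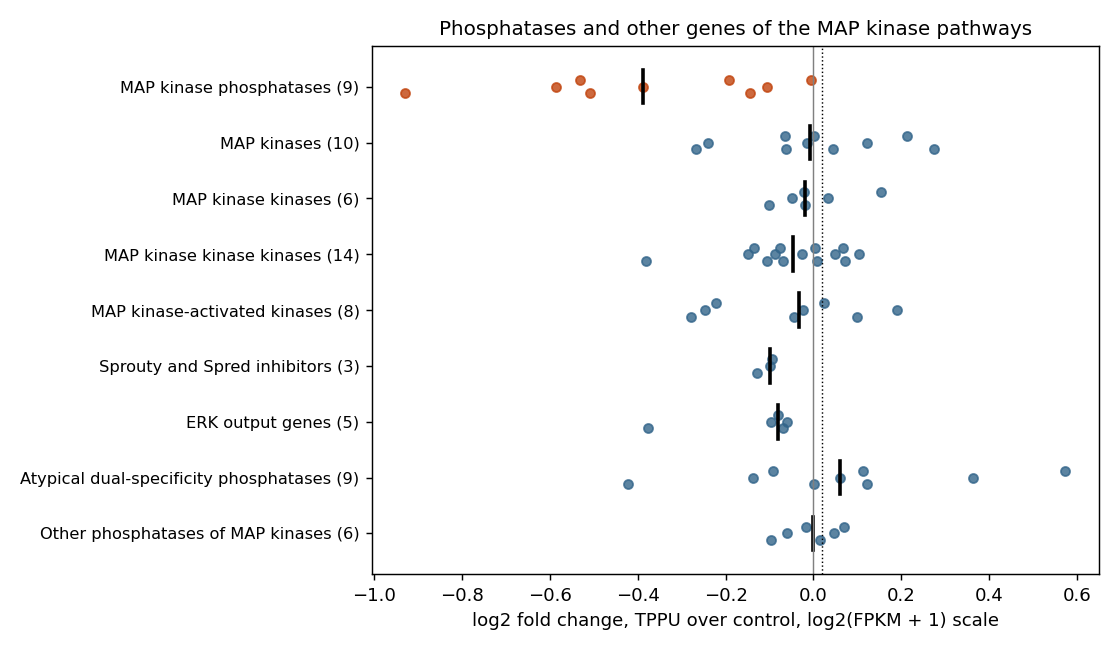
Log2 fold change of TPPU over control for each tested gene of the MAP kinase phosphatases (orange) and of 8 lists of other pathway genes (blue), with the number of genes in brackets, the list's median as a black bar and the median of all tested genes as a dotted line. The median is -0.39 for the phosphatases and between -0.1 and 0.06 for the other lists.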

How the data were processed

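The authors deposited 1 table of FPKM values for 18019 gene symbols in 6 libraries. The submitters' processing notes name the build mm10, and libraries were poly(A)-selected and strand-marked per the labels' protocols. No aligner, counter, annotation or filter is named in the sources used here. Depth was estimated from the whole-fragment steps of low FPKM values in genes with 1 annotated transcript. Between 92.9% and 93.4% of these values were whole within 0.1 of a fragment, against 20% for evenly spread values. Intervals of counting error were not computed.

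A gene was tested where 3 or more of the 6 libraries reached 1 FPKM, which left 9728. The test was limma 3.58.1 (R 4.3.3) on log2(FPKM + 1), with group as its term and prior variance following the mean. That scale understates the change of low genes. Tests were two-sided, with Benjamini-Hochberg adjustment over all tested genes.

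The members, lists and alternatives were chosen with earlier results of these data known. All 9 members were named, with at most 3 genes of each list (those with the smallest p) and the 5 genes most like Dusp1 and the member next in p. Alternatives were other pseudocounts, filters, scalings and limma options, the replicate number as a block, trends on GC or length removed by loess, and libraries left out. GC, length, coding and 3' regions came from GENCODE M21 (97.9% of tested genes matched), and upstream sequence and gene positions from RefSeq (GRCm38.p6). The coding bases, AU-rich sites and upstream windows of members other than Dusp1 were added after values were seen. No member was below the filter, so the planned exact permutation test was not needed. The fit was tested on simulated data. Python 3.11.15 and matplotlib 3.10.9 were used for the rest.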

Additional observations from a re-analysis of the deposited data

How the results depend on the processing

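No member was called in the fit as reported. The count of all genes called was 0 there, and 169 with array quality weights, 10 with the GC trend removed, 39 without control replicate 3 and TPPU replicate 1 together, and 0 to 6 without single libraries. The median log2 fold change of the 9 members was -0.39, and -0.17 with array quality weights and -0.42 with the GC trend removed. It was -0.16 without those 2 libraries and -0.56 to -0.25 without single libraries. The signs of 2 members changed. The Dusp7 log2 fold change was 0.059 with array quality weights and -0.21 to 0.079 without single libraries, and Dusp16 -0.12 to 0.11 without single libraries. The cause of these changes was not tested. The other 7 members kept a negative change under every alternative that gave them a value. Dusp6 is absent at a mean of at least 5 FPKM. Deviations from group means correlated at -0.301, 0.154 and -0.399 between same-numbered libraries 1, 2 and 3, and the numbers were not taken as pairs. TPPU replicate 1 and control replicate 3 had a correlation of 0.506. Deviations from a mean of 3 libraries offset each other, so these values cannot show whether same-numbered libraries shared a culture. With the replicate block the count of genes called was 0, and Dusp1 kept -0.93 (SE 0.14, limma adjusted p = 0.429). With the block and the GC trend removed it had a limma adjusted p of 0.165. With the block alone, 5 members were lower at an unadjusted limma p under 0.05, as were 2.49% of all genes. The 5 were Dusp1, Dusp2, Dusp5, Dusp6 and Dusp10, and 0 members were called after adjustment. In the fit as reported, with 3 libraries a group, the intervals of Dusp2 and Dusp5 reach close to 0, and those of Dusp6 and Dusp10 include 0.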
